A study of Rattus norvegicus with 52 samples.

Results

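The 10 genes described here encode the 5 rat lysyl oxidases (Lox, Loxl1, Loxl2, Loxl3 and Loxl4) and 5 proteins of elastic fibres and the fibrous matrix around them (Eln, Fbn1, Fbln1, Fbln5 and Fn1). They were chosen by name, and each of the 10 had its own row among the 22081 genes of the deposited count table. Lysyl oxidases are secreted copper enzymes that oxidise lysine side chains of collagen and elastin, after which the chains cross-link and the fibre gains strength. Elastin is laid down on a scaffold of fibrillin microfibrils with the help of fibulins, and arteries rely on these fibres for recoil. Smooth muscle cells and fibroblasts are the best known makers of these proteins in an artery, while fibronectin is also made by macrophages.

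The counts came from 52 single cells of 1 group of rats, all male Sprague Dawley animals 7 weeks old. The left common carotid artery had been sewn end-to-side onto the right to form a new branch point, the left renal artery had been tied, and the chow held 8% salt and 0.12% 3-aminopropionitrile, a small molecule that blocks lysyl oxidase activity. The dye DiI was given by vein in nanoparticles to mark phagocytic cells, and 3 days later marked cells were cut singly from the aneurysm with a laser, 5 from rat 1, 23 from rat 2 and 24 from rat 3. No untreated artery and no rat without the inhibitor was analysed here, so the data say nothing of what the model or the inhibitor did to these genes. With 1 group, each value below is a description, with the rat as the replicate (n = 3), and no test between groups was made.

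Libraries held 1538 to 84848 counts, with a median of 15068 and a median of 2689.5 genes found. By rat the median was 18261 in rat 1, 11390 in rat 2 and 21840.5 in rat 3. In 2 cells 1 feature took over 40% of counts. All cells are labelled macrophages. Of 17 macrophage markers, at least 1 reached 5 counts in 27 cells, and in the other 25 cells none did. The summed level of those markers ran from 0 to 14291 CPM (the count over the cell's total, scaled to 1000000) in rat 1, 0 to 28380 in rat 2 and 0 to 26519 in rat 3. That of 7 fibroblast markers ran from 0 to 821, 0 to 46300 and 0 to 25148 CPM.

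Detection of the 10 genes was uneven. Fbln1 and Fbn1 were found in the most cells, 33 and 22 of 52, and Fn1 and Loxl2 in 18 each. The 3 highest cells held 96.6% of the counts of Lox, 96.0% of Loxl1 and 88.5% of Fn1, against 54.8% for Fbn1, 44.5% for Loxl2 and 24.7% for Fbln1. Loxl3, Loxl4, Fbln5 and Eln had 15 counts or fewer each over all cells, with Eln lowest at 3. A gene was called found at 1 or more counts. By that rule 9 of the 10 were found in at least 5 cells, against a background of 43.0% of all genes in the table, and 4 were found in at least 10 cells, against 20.7%. The first count rested on rats 2 and 3: it was 5 without rat 2, against 33.2% of all genes, 4 without rat 3, against 17.3%, and 8 without rat 1, against 38.7%. At least 1 cell held 5 or more counts for 7 of the 10, against 27.4% of all genes. A cell with 10 or more counts existed for 6 of them, against 16.3%. The 3 that passed 50 counts in a cell were Lox, Loxl1 and Fn1, against 4.84% of all genes. The median member was found in 7.5 cells and had a highest count of 18.5, where the median gene of the table was found in 4 cells with a highest count of 2.

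**Figure D1:**
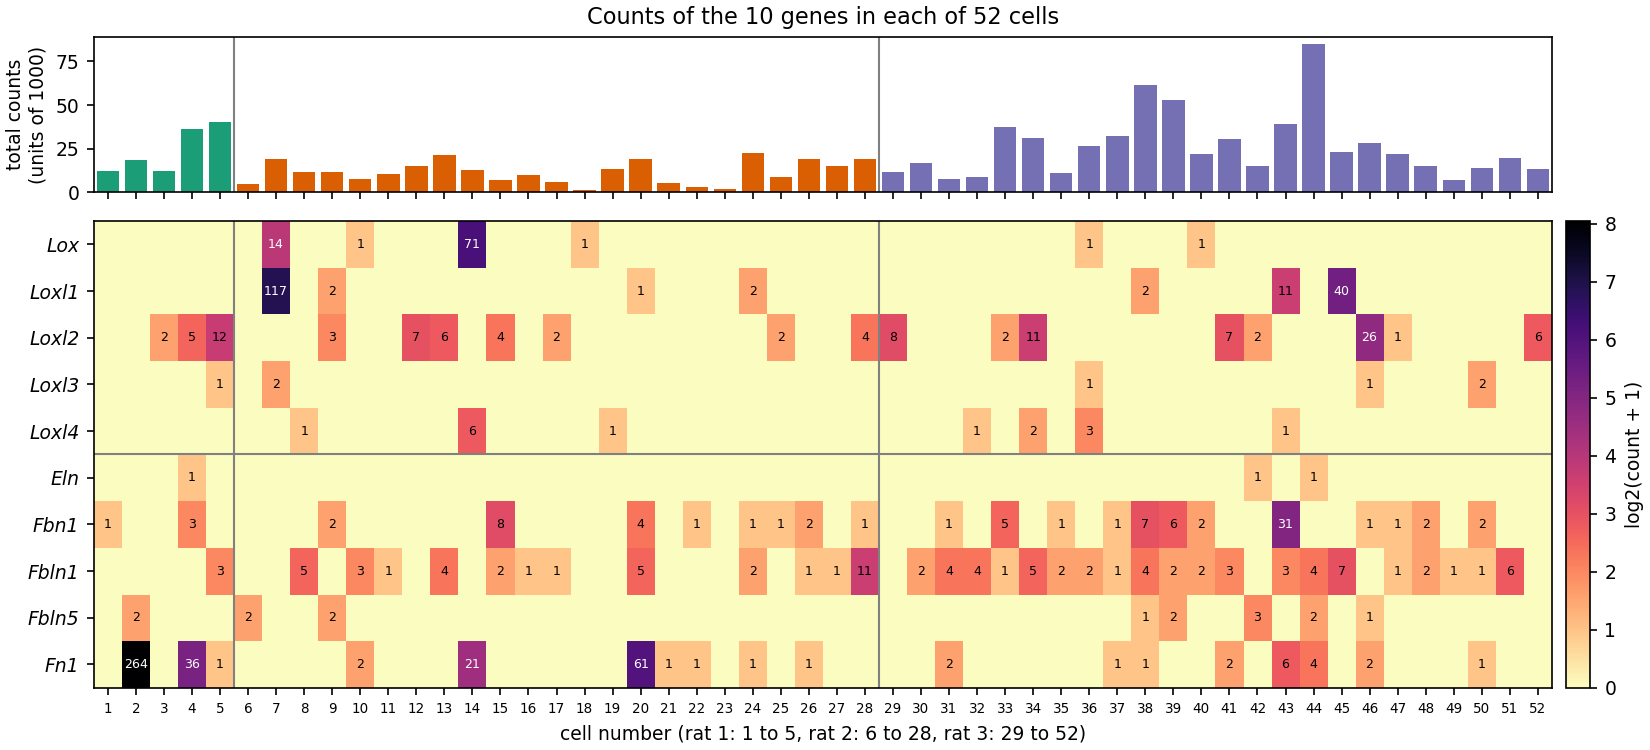
The upper bars give the total counts of each of the 52 cells, in units of 1000 counts, coloured by rat, and the lower panel prints the raw count of each gene in each cell, shaded by log2(count + 1), with blank squares at 0. The row of Fbln1 has counts of 1 to 7 in 20 of the 24 cells of rat 3, while the darkest squares are 264 Fn1 counts in rat 1 cell 2, 117 Loxl1 counts in rat 2 cell 7 and 71 Lox counts in rat 2 cell 14.

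Among the lysyl oxidases, Lox, the founding enzyme of the family, had counts in 6 of 52 cells (11.5%, exact 95% binomial interval 4.35 to 23.4). Rat 2 cell 14 held 71 counts of Lox and rat 2 cell 7 held 14, and the other 4 cells, rat 2 cells 10 and 18 and rat 3 cells 36 and 40, held 1 each. Thus 79.8% of all Lox counts came from 1 cell, and 18 counts were left without it. No Lox count was seen in the 5 cells of rat 1. The upper limit there was taken as 3 cells over the total, a coarse rule for 5 cells and not the exact interval. It allows a share of cells with a count of up to 60%. The share was 17.4% of cells in rat 2 and 8.33% in rat 3, a mean of 8.57% ± 8.70 (SD, n = 3 rats).

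Loxl1, the paralogue that is tied to elastic fibre upkeep in mice, was found in 7 cells (13.5%, interval 5.59 to 25.8). Its counts were 117 in rat 2 cell 7, 40 in rat 3 cell 45, 11 in rat 3 cell 43, 2 in each of rat 2 cells 9 and 24 and rat 3 cell 38, and 1 in rat 2 cell 20. The first of these cells gave 66.9% of the total of 175 counts. Rat 1 again had none, and the mean over rats was 9.96% ± 8.97 (SD, n = 3 rats).

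Loxl2, a paralogue with scavenger receptor domains that cross-links basement membrane collagen, behaved differently. It was found in 18 cells (34.6%, interval 22.0 to 49.1), and in 17 of these it had 2 or more counts. Its median in cells with any count was 4.5, the highest of the 10 genes, and 9 cells held 5 or more. The highest counts were 26 in rat 3 cell 46, 12 in rat 1 cell 5 and 11 in rat 3 cell 34, and the top cell gave 23.6% of the total of 110. Shares were 60% in rat 1, 30.4% in rat 2 and 33.3% in rat 3, a mean of 41.3% ± 16.3 (SD, n = 3 rats). With each cell thinned to 10000 counts, which left 40 cells, Loxl2 was found in 35% of cells, 3 of 5 in rat 1, 4 of 14 in rat 2 and 7 of 21 in rat 3.

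The remaining lysyl oxidases were scarce. Loxl3, which like Loxl2 carries scavenger receptor domains, was found in 5 cells with at most 2 counts and 7 in all. On GRCr8, the RefSeq assembly used for names, its gene overlaps Htra2, so reads there are uncertain between the pair. Htra2 itself was found in 2 cells, and Loxl3 in neither. The gene of Lox overlaps the pseudogene Rps3a-ps12, and those of Eln, Fbn1 and Fbln1 each overlap a long noncoding RNA, none of which was analysed here. Loxl4, the last of the family, was found in 7 cells with 15 counts in all, of which 6 lay in rat 2 cell 14, the cell with the most Lox, and 3 in rat 3 cell 36. For these low genes a cell at 0 cannot be told from one whose few transcripts were missed.

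Elastin itself was nearly uncounted. Eln, the gene of the elastic core of the fibre, had a single count in each of 3 cells, rat 1 cell 4, rat 3 cell 42 and rat 3 cell 44 (5.77% of cells, interval 1.21 to 15.9). The last of these is the deepest library, with 84848 counts, and in it 1 unnamed feature took 51.6% of all counts. No count was seen in the 23 cells of rat 2, with an upper limit of 13.0% of cells. At this depth a low level of Eln in more cells was not detectable.

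Fbn1, which encodes fibrillin-1 of the microfibril scaffold, was found in 22 cells (42.3%, interval 28.7 to 56.8). Rat 3 cell 43 held 31 of its 84 counts. Rat 2 cell 15 held 8, rat 3 cell 38 held 7, rat 3 cell 39 held 6 and rat 3 cell 33 held 5, and in 10 cells there was a single count. By rat the share was 40% in rat 1, 34.8% in rat 2 and 50% in rat 3, so that the spread between rats was small beside the mean of 41.6% ± 7.73 (SD, n = 3 rats).

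Fbln1, a fibulin of the matrix that binds fibronectin, was the most widely found of the 10, in 33 cells (63.5%, interval 49.0 to 76.4). Its highest counts were 11 in rat 2 cell 28, 7 in rat 3 cell 45 and 6 in rat 3 cell 51, its median in cells with any count was 2, and no cell gave more than 11.3% of its 97 counts. Rats differed widely, with 1 of 5 cells in rat 1, 12 of 23 in rat 2 and 20 of 24 in rat 3, a mean of 51.8% ± 31.7 (SD, n = 3 rats). Library totals moved with the count in rats 2 and 3, though the median of rat 1 lay above that of rat 2. After thinning to 10000 counts Fbln1 was found in 0 of 5, 7 of 14 and 9 of 21 cells, so that rat 3 no longer led. The part of depth in this difference was not tested further.

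Fbln5, the fibulin that elastic fibres need for assembly in mice, was found in 8 cells (15.4%, interval 6.88 to 28.1). Its highest count was 3, in rat 3 cell 42, and its total 15. Its share was 20% in rat 1, 8.70% in rat 2 and 20.8% in rat 3.

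Fn1, the gene of fibronectin, had the highest counts of the set. It was found in 18 cells (34.6%, interval 22.0 to 49.1), and 264 of its 408 counts lay in rat 1 cell 2. Rat 2 cell 20 held 61, rat 1 cell 4 held 36, rat 2 cell 14 held 21 and rat 3 cell 43 held 6, and all other cells held 4 or fewer. In the 24 cells of rat 3 the highest count was therefore 6, against 264 among the 5 cells of rat 1 and 61 among the 23 of rat 2. Without its top cell Fn1 had 144 counts. On the log2(CPM + 1) scale, with cells averaged within a rat, Fn1 stood at 5.69 in rat 1, 2.50 in rat 2 and 2.02 in rat 3. The value of rat 1 came from 3 of its 5 cells, with 264, 36 and 1 counts.

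**Figure D2:**
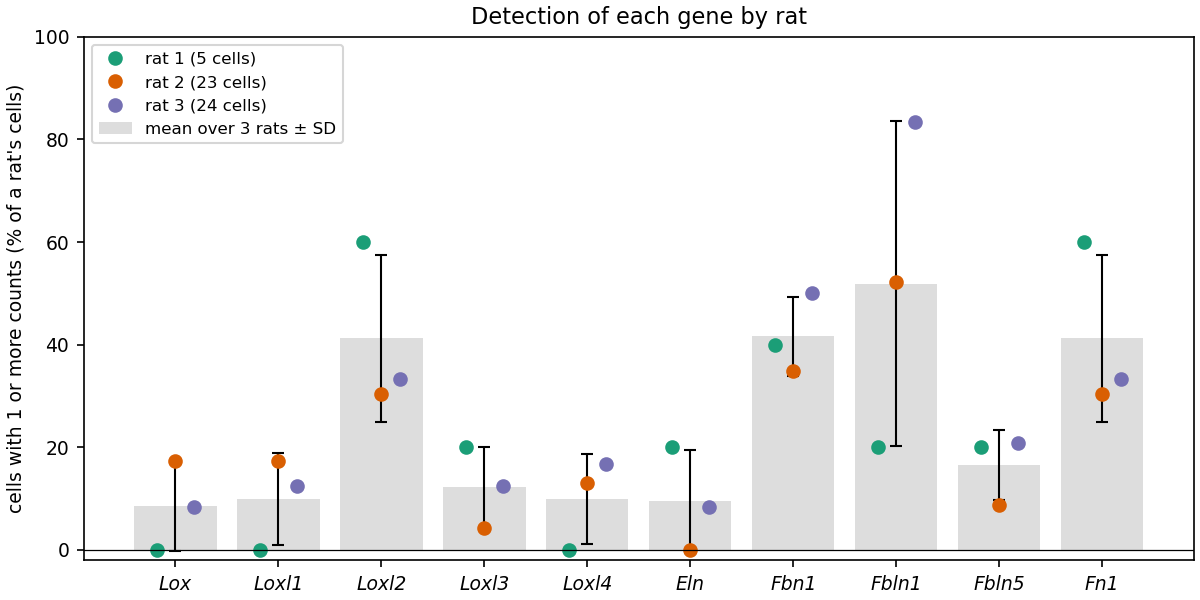
Grey bars give the mean percent of cells with 1 or more counts of each gene over 3 rats with the SD, and points give each rat. Rat 1 points are at 0 for Lox, Loxl1 and Loxl4 and at 60% for Loxl2 and Fn1, each from 5 cells, and Fbln1 runs from 20% in rat 1 to 83.3% in rat 3.

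Ordered by the number of cells, Fbln1 was followed by Fbn1, then Fn1 and Loxl2 together, then Fbln5, Loxl1 and Loxl4 together, Lox, Loxl3 and Eln. The intervals of each neighbouring pair in this order overlapped. Between neighbours, 1 step was in the same direction in 3 of 3 rats, that from Loxl2 to Fbln5. Full-length libraries give more counts to longer transcripts, and transcript lengths were not used here, so this is an order of detection and not of expression. Detection was wider for genes with a longer span in the RefSeq annotation of GRCr8. The 4 genes found in 10 or more cells span 68.7 kb (Fn1), 79.6 kb (Fbln1), 91.3 kb (Loxl2) and 197 kb (Fbn1), while Lox spans 12.8 kb, Loxl3 16.3 kb, Loxl4 20.2 kb, Loxl1 24.6 kb and Eln 43.4 kb. Exceptions were Fbln5, at 78.7 kb, and Eln, which was found in fewer cells than the shorter Lox, Loxl1, Loxl3 and Loxl4. Spearman's rho between span and cells was 0.80 across the 10 genes, and 0.09 between span and highest count. Across 18269 genes of the table with a span, rho was 0.38 for cells, with a median of 2 cells for spans up to 5.01 kb and 7 cells for spans of 64.7 kb or more. Such values are across genes, which are not independent, and the part of span in the detection of these genes was not tested.

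**Figure D3:**
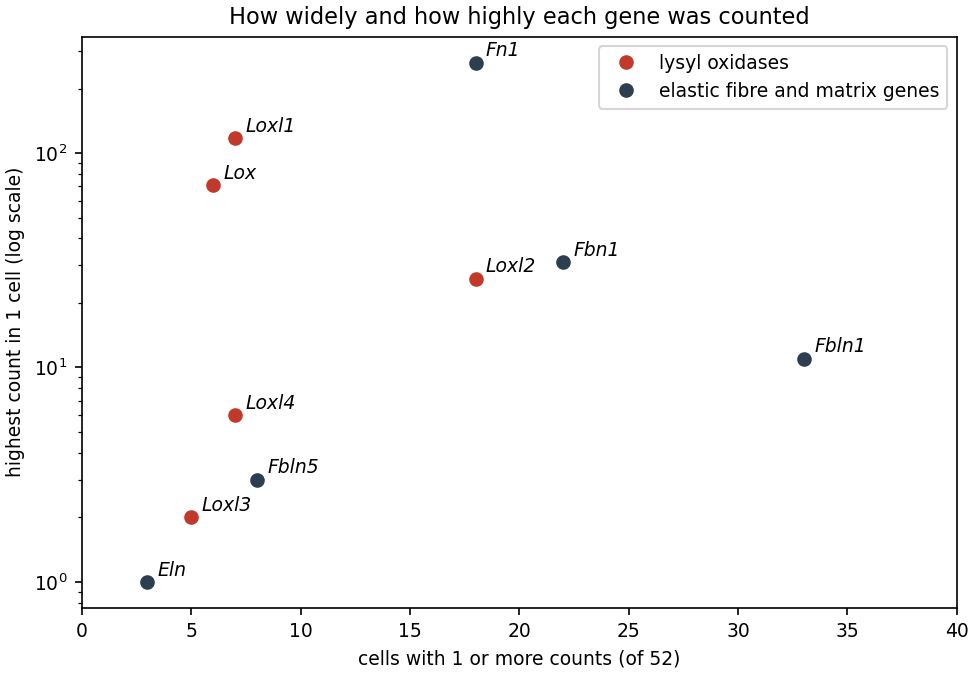
Each point is 1 gene, placed by the number of cells with a count (of 52) and by its highest count in 1 cell on a log scale, with lysyl oxidases in red. Lox and Loxl1 lie at the upper left, in 6 and 7 cells with peaks of 71 and 117, Fbln1 lies at the right, in 33 cells with a peak of 11, and Eln lies at the lower left with a peak of 1.

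The next question was whether these genes, which act in the same fibre, were counted in the same cells. Of 45 pairs, 38 shared at least 1 cell. The median phi coefficient, a correlation of found and not found across 52 cells, was 0.03, with a range from -0.26 to 0.35, and 24 pairs were above 0 and 21 below. In the other 7 pairs the genes never shared a cell. Phi passed 0.25 in 3 pairs. Eln and Fbln5 shared 2 of the 3 Eln cells (phi 0.35), both in rat 3. Lox and Loxl3 shared 2 cells (phi 0.29). Fbn1 and Fn1 shared 11 cells (phi 0.28), with values of 0.31 in rat 2, 0.35 in rat 3 and 0.22 after thinning. The first 2 of these rest on 2 shared cells each.

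At the other end, Lox and Loxl2 had no cell in common, with 6 and 18 cells (phi -0.26). Fbln1 and Fbln5, the 2 fibulins, shared 3 cells (phi -0.23), at -0.32 in each of rats 2 and 3. Loxl2 and Fbln1 shared 9 cells (phi -0.20), at 0.07 in rat 2 and -0.63 in rat 3. The latter pair thus differed in sign between rats. Of 36 pairs with a value in both rat 2 and rat 3, 19 had the same sign.

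**Figure D4:**
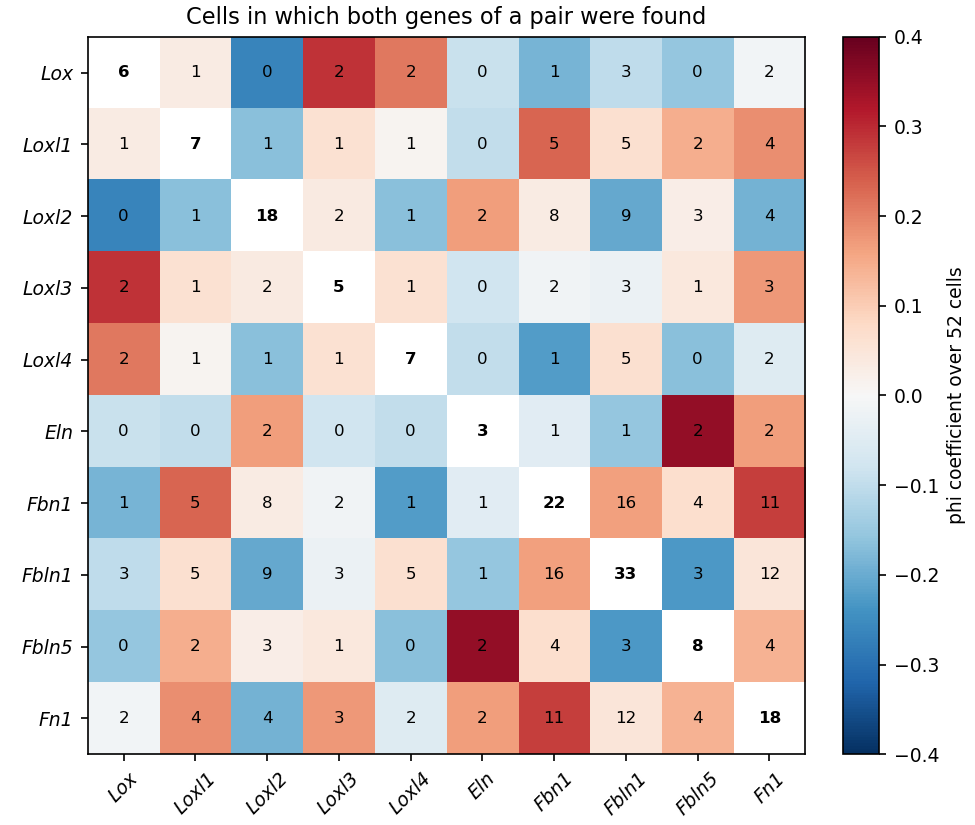
Each square prints the number of cells in which both genes were found, with the cells of the gene itself in bold on the diagonal, and its colour gives phi over 52 cells. Most squares are pale, the Eln and Fbln5 square is the reddest at 0.35, and the Lox and Loxl2 square is the bluest at -0.26 with 0 shared cells.

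Cells in which a pair was plentiful were few. Both genes reached 10 counts in the same cell for 3 pairs, each in 1 cell. Rat 2 cell 7 joined Lox (14) and Loxl1 (117), rat 2 cell 14 joined Lox (71) and Fn1 (21), and rat 3 cell 43 joined Loxl1 (11) and Fbn1 (31). A cell held at most 5 of the 10 genes, in rat 3 cells 38, 43 and 46, and the median was 2.5. Rat 2 cell 23, with 2141 counts, held none.

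Deeper cells held more of the 10 genes. The 15 cells with 1 gene had a median of 11973 counts, and the 10 with 2 genes were slightly lower at 11143. The 15 with 3 genes had 19309, the 8 with 4 genes 24666 and the 3 with 5 genes 39018. Spearman's rho between genes found and total counts was 0.63 over 52 cells (Pearson's r with log2 total 0.63). It was 0.52 within the 23 cells of rat 2 and 0.64 within the 24 of rat 3. With the 40 deeper cells thinned to 1 depth, rho between genes found and their original totals was 0.07. The 12 shallowest cells were left out of that value, and rho without thinning in the same 40 cells was not computed. The fall from 0.63 therefore cannot be put down to equal depth alone. Depth is shared by both genes of a pair, and after thinning the median phi of the 45 pairs was -0.04.

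**Figure D5:**
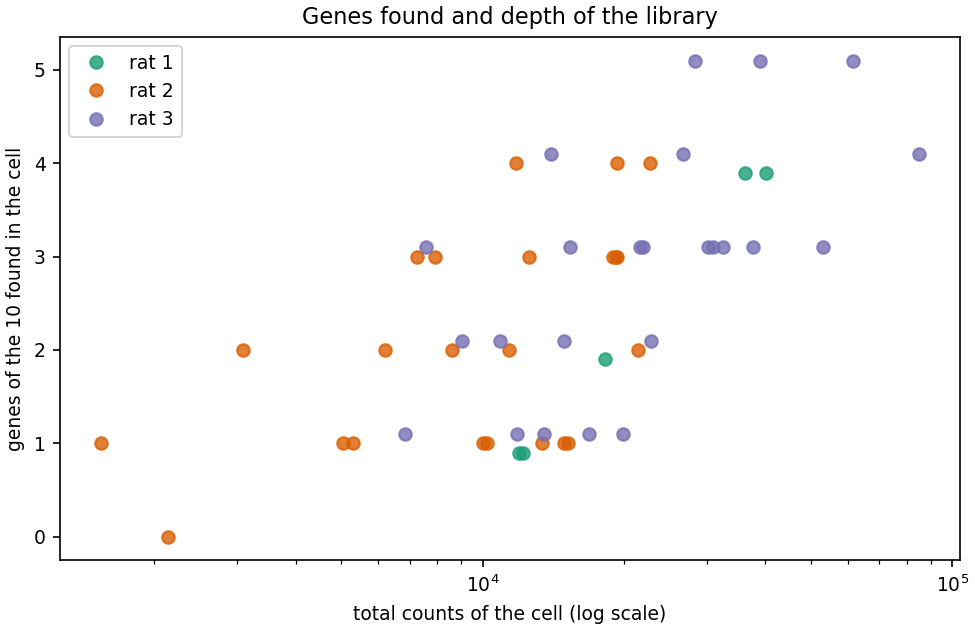
Each point is 1 cell, placed by its total counts on a log scale and by how many of the 10 genes it held, with small vertical offsets between rats so that points do not hide each other. Cells with 4 or 5 genes start at 11802 counts, below the median of 15068, and the 2 shallowest cells held 1 and 0.

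In 11 cells a gene of the set had 10 or more counts, a limit set after the values were seen, and their other transcripts differed. At least 1 macrophage marker reached 5 counts in 10 of these 11, against 27 of all 52 cells. For a smooth muscle marker it was 5 against 16, for a fibroblast marker 6 against 16 and for an endothelial marker 4 against 13. These lists held 17, 9, 7 and 7 markers, so the macrophage list had the most chances to pass. Counts were not equalised for depth here, and a deeper library passes a cut of 5 counts more easily. Just 1 macrophage marker reached 5 counts in rat 1 cells 2 and 5 and in rat 2 cell 20. The same held for rat 3 cells 34, 43, 45 and 46. Rat 2 cell 7, with the most Loxl1, held 10 of 17 macrophage markers, led by 252 counts of C1qa and 145 of C1qb (complement C1q chains) and 95 of Cd68 (a lysosomal glycoprotein). The other 7, Csf1r, Lyz2, Aif1, Adgre1, Cd14, Spi1 and Lgals3, were at 0 there, and 7 fibroblast markers gave 1 count in all. Rat 1 cell 4, with 36 Fn1 counts, held 12 of 17 macrophage markers, led by 236 counts of Lyz2 (lysozyme) and 68 of Lgals3, with Csf1r, C1qa, Adgre1, Cd14 and Spi1 at 0. Of the fibroblast markers it held 11 counts of Col1a1 (a chain of type I collagen), with the other 6 at 0, and of 9 smooth muscle markers it held 3 counts of Myocd and no other.

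Other cells rich in the set held collagen. Rat 2 cell 14, with the most Lox, held 356 counts of Col1a1, 215 of Col3a1 (type III collagen) and 44 of Col8a1 beside 23 of Lyz2. Rat 2 cell 20, with 61 Fn1 counts, held 398 of Col1a1 and 90 of Col6a2 beside 113 of C1qc. Rat 3 cell 43, with the most Fbn1, held 293 of Col1a1, 75 of Col3a1 and 33 of Col4a1, and its highest macrophage marker was Fcgr3a, an Fc receptor, at 11. Rat 3 cell 45, with 40 Loxl1 counts, held 284 of Lum (lumican, a collagen-binding proteoglycan), 197 of Col1a1 and 92 of Col3a1 beside 18 of Tyrobp, an adaptor of myeloid receptors. That cell also held 173 counts of Myocd, a smooth muscle coactivator, 4 of Mylk and 2 of Myh11, while the other 6 smooth muscle markers, Acta2 among them, were at 0. In these 4 cells the summed fibroblast markers reached 46300, 25028, 9432 and 25148 CPM, with 4, 4, 2 and 4 of 7 markers found. Macrophage markers found were 8, 5, 3 and 2 of 17, and smooth muscle markers 0, 2, 5 and 3 of 9. Endothelial markers found were 3, 0, 5 and 0 of 7. Rat 2 cell 14 also held 17 counts of Nos3, an endothelial marker, and 16 of Spi1, a macrophage marker. Rat 3 cell 43 also held 10 of Acta2 and 6 of Des, smooth muscle markers, and 7 of Nos3. Pdgfra and Pi16, fibroblast markers, and Cd68 and C1qa were at 0 in each of the 4 cells.

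The cell with the most Fn1 matched neither description. Rat 1 cell 2 held 264 Fn1 counts, 15 of Col1a1, 5 of Fcgr3a and 4 of Lyz2, with 3 of 17 macrophage and 1 of 7 fibroblast markers found. The 3 cells highest in Loxl2 had few collagen counts, at most 3 for any listed collagen in rat 3 cell 46, 4 in rat 1 cell 5 and 2 in rat 3 cell 34. Rat 1 cell 5 held 7 of 9 smooth muscle markers, Cnn1, a calponin, at 22 counts and the other 6 at 1 or 2, with Myh11 and Smtn at 0. That cell also held 3 of 17 macrophage markers, led by 5 of Adgre1, and 3 of 7 endothelial markers, led by 5 of Kdr. Rat 3 cell 34 held 44 counts of Lyz2, with 3 of 17 macrophage markers found. It also held 5 of 9 smooth muscle and 4 of 7 endothelial markers, at 2 counts or fewer. Rat 3 cell 46 held 5 of 17 macrophage markers, led by 9 of Fcgr3a. It held 5 of 9 smooth muscle markers, led by 6 of Acta2, and 4 of 7 endothelial markers, led by 6 of Kdr. Rat 2 cell 28, with the most Fbln1, had no macrophage marker above 2 counts and held 5 smooth muscle markers, led by 9 of Mylk, a kinase of smooth muscle myosin. Over the 22 cells with 5 or more counts of any of the 10 genes, 16 had a macrophage marker, 10 a fibroblast, 8 a smooth muscle and 9 an endothelial marker at 5 or more counts. Over all 52 cells these numbers were 27, 16, 16 and 13. Whether RNA of more than 1 cell entered a cut was not tested.

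Partners outside the set were chosen after the values were seen. Of the 18 cells with Fn1, 17 also held Col1a1, which was found in 33 of all 52 (phi 0.47), and 14 held Sparc, a collagen-binding matrix protein found in 24 (phi 0.46). Loxl2 shared 9 of its 18 cells with Col1a1 (phi -0.20). All 3 Eln cells held Col1a1. Within each of the 4 marker lists phi took both signs for every member, except that Fbn1 had phi above 0 with all 7 endothelial markers. Fbln1 had phi above 0 with 8 of 9 smooth muscle markers, from -0.06 for Smtn to 0.48 for Mylk, which was in 30 of the 33 Fbln1 cells and 39 of all 52. Loxl2 had phi above 0 with 5 of the 9, from -0.14 for Mylk to 0.34 for Lmod1. Among the other members this number ran from 2 in Eln to 7 in Loxl3. With 17 macrophage markers phi was above 0 for 13 in Lox, from -0.07 for Aif1 to 0.35 for Tyrobp, and for 11 in Fbn1, from -0.19 for Fcer1g to 0.33 for Mrc1. For Loxl2 it was above 0 for 7 of the 17, from -0.20 for Tyrobp to 0.27 for Aif1. Among the remaining members the number ran from 10, as in Fbln1 and Fn1, to 13 in Loxl3 and Eln. Fn1 had phi above 0 with 4 of 7 fibroblast markers, Col1a1 the highest. Genes of a cell share its depth here too.

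Genes whose CPM followed a member most closely over the 52 cells were sought for the 4 members found in 10 or more cells, among 4565 genes. Loxl2 was closest to Lyve1, a hyaluronan receptor of resident macrophages and lymphatic vessels (Spearman's rho 0.61, found together in 15 cells), Gtf3c2 (0.60) and Ncbp2_1 (0.60). Fbn1 was closest to Stau1 (0.60), Mcf2l (0.56) and Cdkn1a (0.56). Fn1 was closest to Tle3 (0.60), Slc41a2 (0.56) and Neurl1 (0.55). Genes close to Fbln1 included RGD1561730 (0.51) and Parg (0.50). These are the highest of many values in sparse counts and are given as a description.

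Of 20 other genes of elastic fibre assembly, 9 (45%) were found in at least 10 cells, against 20.7% of all genes. A cell with 10 or more counts existed for 3 (15%), against 16.3% of all genes, and the median highest count was 3, against 18.5 for the 10 genes. Hmcn1, hemicentin-1, was found in 32 cells with at most 8 counts, and Ltbp1, a latent TGF-beta binding protein that sits on microfibrils, in 25 with at most 3. Fbln2, a further fibulin, was found in 23 cells and peaked at 19 counts in rat 3 cell 46, the cell with the most Loxl2. Emilin2, an elastic fibre glycoprotein, reached 23 counts in rat 3 cell 31. Mfap4, a microfibril-associated protein, was found in 8 cells and reached 31 counts in rat 2 cell 14.

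Of 20 genes for processing of collagen and elastin, 7 (35%) were found in at least 10 cells and 8 (40%) had 10 or more counts in a cell, against 20.7% and 16.3% of all genes. Sparc, found in 24 cells, peaked at 231 counts in rat 3 cell 33. Serpinh1, the collagen chaperone, was found in 16 cells and peaked at 77 in rat 2 cell 20, and P4hb, a subunit of the prolyl hydroxylase that stabilises collagen, was found in 5 and peaked at 57 in rat 2 cell 14. Lrp1, an endocytic receptor, reached 52 in rat 2 cell 10, and Colgalt1 and Plod3, which modify collagen lysines, were found in 13 and 17 cells. Of 10 collagens measured, 8 (80%) were found in at least 10 cells and 5 (50%) had 10 or more counts in a cell, against the same 20.7% and 16.3%, and Col1a1 had 5 or more counts in 15 cells.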

How the data were processed

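The authors deposited whole-number counts per gene symbol for 52 single cells, with no normalization, as the values show. Libraries were made with the SMART-Seq Single Cell Plus kit, per the labels' protocols. Aligner, counter, build, strand setting and duplicate removal: not given in the sources used here. Counts of overlapping genes are therefore uncertain. The index sheet deposited with the counts was not used. Columns were matched to cells by title, with 0 left over, and no 2 columns were identical.

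The 10 genes and the wider lists were chosen with earlier results of these data known. Named genes were all 10, the 3 most often found of each wider list, up to 5 per list with 10 or more counts in a cell, and the 3 closest genes to each member found in 10 or more cells (rho of at least 0.5). A gene that this rule takes is not reported here. Other names were chosen after their values were seen. Of the lists, Mt1a, Ctsv, Itgb5, Col1a2, Col6a3 and Pecam1 are not analysed here.

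Levels were log2(CPM + 1) with the column total as library size. The planned comparison of 20 gene pairs per coding length was not run, because no coding length was used here; its sign-flip test over 3 rats could not go below an exact p of 0.25. Binomial intervals are exact (Clopper-Pearson) over 52 cells, cover counting error only and treat cells as independent; a share of 0 allows 3 cells of the total. Nothing in the labels marks molecules, so counts may hold PCR copies. Cells were cut singly, and doublets were not called. Gene spans came from RefSeq GRCr8, matched by symbol for 16686 genes and with synonyms for 18269 of 22081 (82.7%). Detection and phi were tested on simulated counts of genes raised together in part of the cells. The genes raised had totals above those of Loxl3, Loxl4, Eln and Fbln5 and below that of Fn1. For thinning, at a lower depth than used here, only the resulting total and the absence of raised counts were checked. Thinning to 10000 counts used 1 random draw and left out 12 cells. Tools were Python 3.11.15, numpy 2.4.6, pandas 2.3.3, scipy 1.17.1, matplotlib 3.10.9, R 4.3.3 and edgeR 4.0.16, the last for TMM scaling only.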

Additional observations from a re-analysis of the deposited data

How the results depend on the processing

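The mean percent of the 10 genes found per cell was 24.3% ± 3.53 (SD, n = 3 rats), 15.7% at 2 or more counts, 6.49% at 5 or more and 18.9% with cells thinned to 10000 counts, and it ran from 22.4% to 26.0% with each rat left out. The number of genes found in at least 5 cells was 9, against 43.0% of all genes. It was 6 when 2 counts were needed, 4 when 5 counts were needed and 7 after thinning. The share of all genes under those settings was not computed, so these falls cannot be called particular to the 10 genes. With each rat left out the number ran from 4 to 8. Leaving out rat 3 gave 4 (17.3% of all genes), leaving out rat 2 gave 5 (33.2%) and leaving out rat 1 gave 8 (38.7%). The correlation of genes found with depth was 0.63. Between genes found after thinning and the original totals of the 40 cells kept it was 0.068, with no value computed for those 40 cells without thinning. The median level of the 10 genes was 1.24 ± 0.26 (SD, n = 3 rats) on the log2(CPM + 1) scale, -1.47 with a pseudocount of 0.1, 3.99 with a pseudocount of 10, and 1.65 over genes with 10 or more counts in all, and 1.32 with TMM scaling. The settings for levels, and leaving out the 2 cells in which 1 feature took over 40% of counts, were chosen after seeing the data. Under the latter no gene's share of cells moved by more than the SD between rats, while at 5 or more counts 6 genes did. For Lox and Eln that SD, 8.70 and 10.0, exceeded the mean share of 8.57% and 9.44%, so no loss could pass it. It was nearly as large as the mean for Loxl1 (8.97 against 9.96%) and Loxl4 (8.77 against 9.90%). Eln fell to 0 at 2 or more counts without passing it. Median phi ran from -0.04 to 0.03 over the settings tried. Within rats 1, 2 and 3 it was -0.17, -0.06 and 0, with an SD of 0.084. Pairs of genes were not compared per length, so no setting of that comparison was run. No paired analysis was possible because there is 1 group.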

Other observations

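Copper reaches lysyl oxidases through the pump Atp7a, which was found in 20 of 52 cells with at most 6 counts. Its relative Atp7b was found in 13 cells and reached 16 counts in rat 1 cell 4. Of 13 copper handling genes measured, 2 (15.4%) were found in at least 10 cells, against 20.7% of all genes. A cell with 10 or more counts existed for 4 (30.8%), against 16.3%. Mt2A, a metallothionein that binds metal ions, was found in 4 cells and reached 79 counts in rat 3 cell 37. Sod3, an extracellular copper enzyme, reached 10 counts in rat 2 cell 14, the cell with the most Lox. Cox17 reached 11 counts in rat 2 cell 13, and Cp, ceruloplasmin, was found in 8 cells.

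Among 11 elastolytic enzymes measured, 2 (18.2%) were found in at least 10 cells, near the 20.7% of all genes, and 4 (36.4%) had 10 or more counts in a cell, against 16.3%. Ctsb, a lysosomal protease, reached 807 counts in rat 3 cell 39, where Ctss, an elastolytic cathepsin, reached 146 of its 147 counts. Mmp2, a gelatinase, reached 81 counts in rat 2 cell 20, Ctsl reached 32 in rat 1 cell 4, and Mmp9 was found in 7 cells with at most 7. Mmp12, the macrophage elastase, was found in 0 of 52 cells, a count that limits the share of cells with a count to 5.77%.

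Of 16 receptor genes for fibronectin and elastin, 6 (37.5%) were found in at least 10 cells and 5 (31.2%) had 10 or more counts in a cell, against 20.7% and 16.3% of all genes. Cd44, the hyaluronan receptor, was found in 35 cells with at most 7 counts. Itgb6, an integrin chain known best from epithelia, was found in 30 cells, and 603 of its 666 counts lay in rat 3 cell 41. Itgb1, the common chain of fibronectin receptors, reached 110 counts in rat 2 cell 12, Itgav reached 23 in rat 1 cell 5, and Rpsa, a ribosomal protein also described as a laminin receptor, reached 165 in rat 3 cell 43. Lgals3 reached 68 in rat 1 cell 4, and Sdc4, a syndecan, was found in 15 cells with at most 3 counts.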
